A study of Mus musculus with 6 samples.

Results

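Genes of fructose breakdown and glucose production, chosen by name with earlier results of these data known, were described in sorted epithelial cells of the mouse small intestine. They were Khk, Tkfc, G6pc, Slc37a4, Fbp1, Pck1 and Pck2, 7 of the 23390 genes in the deposited table, and all 7 passed the filter on low counts. Living cells had been sorted as negative for CD45, a leukocyte surface protein, and positive for EpCAM, an epithelial one, and all mice were on the C57BL/6 background. There were 3 libraries from Vil.Cre Maf.flox mice, in which the villin promoter drives Cre in gut epithelium to delete the floxed Maf gene, and 3 from Maf.flox mice, which carry the floxed gene without Cre. A Cre group with intact Maf was not part of the design, so that Cre and the loss of Maf cannot be told apart. Ages were not labelled, nor whether each library came from its own mouse. Counts of Xist and Y-linked genes place both sexes in each group, so neither group came from a single mouse. Libraries of the same sex may still share a mouse, so p-values reflect only how these libraries vary, which may in part be technical variation. Maf.flox replicates 1 and 3 differed from each other (132 chi-square units per gene) by more than any Vil.Cre Maf.flox library differed from a Maf.flox one (56.7 to 129). Total counts were 17464355 to 21631476 in Vil.Cre Maf.flox and 19842751 to 24802525 in Maf.flox libraries. Maf itself was down to between 1 and 16 counts in Vil.Cre Maf.flox, against 3893 to 9398 counts in Maf.flox libraries. Of the 13740 genes tested, 75 passed an adjusted p of 0.05, and the median log2 fold change of all genes was -0.01.

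Fructose enters enterocytes through the transporter GLUT5, and ketohexokinase, encoded by Khk, traps it by adding a phosphate. After the product is split, triokinase, encoded by Tkfc, phosphorylates the glyceraldehyde that is released, so that the carbon joins the triose phosphates shared by glycolysis and gluconeogenesis. Glucose production runs through phosphoenolpyruvate carboxykinase (Pck1 in the cytosol, Pck2 in mitochondria), fructose bisphosphatase (Fbp1) and, in the endoplasmic reticulum, the glucose-6-phosphatase catalytic subunit (G6pc) with its substrate carrier (Slc37a4). In mice the small intestine is known to convert part of the dietary fructose to glucose. This carbon joins at the triose phosphates, past the step of Pck1 and Pck2, and uses the later steps. Only mRNA was measured here, not flux.

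The enzymes at both ends of glucose production had the largest differences. Pck1 averaged 12.9 ± 2.90 CPM (counts scaled to library size by TMM) in Vil.Cre Maf.flox and 72.8 ± 35.8 CPM in Maf.flox libraries, and G6pc averaged 3.70 ± 3.24 and 17.5 ± 12.4 CPM (SD, n = 3 each). Fbp1, Slc37a4 and Khk had smaller fitted differences, to 52.0%, 68.6% and 61.7% of the Maf.flox level, while Tkfc and Pck2 stood at 95.8% and 91.5%. None of the 7 passed over all genes (edgeR's quasi-likelihood test, adjusted p 0.0622 to 0.904), where 0.357% of all genes were called lower. At an unadjusted p under 0.05, 5 of the 7 were lower, against 9.25% of all genes. Pck1, G6pc, Fbp1 and Slc37a4, 4 of the 7, were lower in every Vil.Cre Maf.flox library than in any Maf.flox library, against 10.5% of all genes. Each of the 7 log2 fold changes was negative (median -0.70), as were 51.6% of those of all genes (median -0.01). In bulk RNA, fewer cells of a type and less RNA per cell cannot be told apart.

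The sequence before the start of 3 of these genes is shown because Pck1 and G6pc had the largest differences and Khk opens the fructose pathway. Each line gives the 250 bases before the RefSeq start (GRCm38.p6) on the gene's own strand, with matches to 3 short motifs in capitals. Pck1 lies at chr2:173152823-173153072, G6pc at chr11:101367466-101367715 and Khk at chr5:30921309-30921558, all on the plus strand.
Pck1: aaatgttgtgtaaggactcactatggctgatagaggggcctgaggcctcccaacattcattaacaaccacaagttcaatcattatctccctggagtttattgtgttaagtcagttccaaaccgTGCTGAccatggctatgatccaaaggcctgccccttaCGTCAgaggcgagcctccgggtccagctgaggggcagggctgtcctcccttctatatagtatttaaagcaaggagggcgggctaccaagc
G6pc: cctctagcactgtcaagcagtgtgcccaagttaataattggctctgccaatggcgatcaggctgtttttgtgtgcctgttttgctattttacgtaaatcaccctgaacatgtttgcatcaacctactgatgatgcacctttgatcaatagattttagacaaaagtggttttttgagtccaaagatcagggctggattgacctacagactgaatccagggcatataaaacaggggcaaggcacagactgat
Khk: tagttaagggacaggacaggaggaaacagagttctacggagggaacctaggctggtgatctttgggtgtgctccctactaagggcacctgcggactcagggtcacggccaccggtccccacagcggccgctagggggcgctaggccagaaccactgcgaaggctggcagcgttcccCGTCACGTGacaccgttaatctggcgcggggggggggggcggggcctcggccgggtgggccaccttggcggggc
The motifs were TGCTGA, a half-site of the Maf recognition element, CGTCA, a half-site of the cAMP response element, and CACGTG, an E-box of the kind used by the carbohydrate response factor ChREBP, each read on both strands. The Pck1 window held TGCTGA 127 bases and CGTCA 90 bases before the start. In Khk, CGTCA and CACGTG overlapped, at 74 and 71 bases before the start. Each window ends past the gene start given with the counts (173153048 for Pck1, 101367561 for G6pc and 30921431 for Khk). The Khk matches therefore lie inside the annotated gene, and the Pck1 matches lie before it. The G6pc window held none of the 3 in these letters. TGCTGA was found in 16.1%, CGTCA in 17.8% and CACGTG in 6.02% of 32851 such windows of all genes. A match shows only that the letters are there. Among the other members, TGCTGA was also in the Tkfc window and in 1 of 3 Slc37a4 windows. CGTCA was in 2 Slc37a4 windows, which overlap and share a match. The Fbp1 and Pck2 windows held none.

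**Figure D1:**
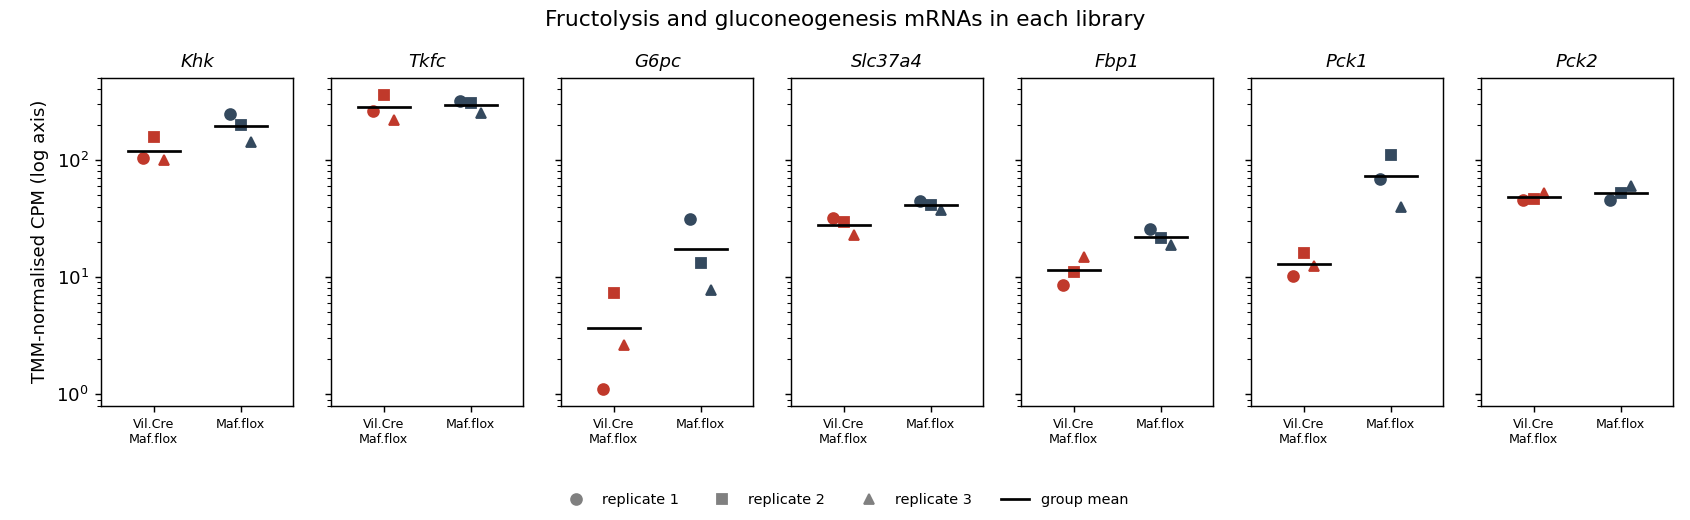
Normalised level of each gene (TMM-normalised CPM, log axis) in the 3 Vil.Cre Maf.flox libraries (red) and the 3 Maf.flox libraries (dark blue), with symbols for the replicate and a bar for the group mean. G6pc, Slc37a4, Fbp1 and Pck1 do not overlap between groups, while Khk, Tkfc and Pck2 do.

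Pck1 (ENSMUSG00000027513, GRCm38 chromosome 2, 173153048 to 173159273, plus strand) encodes the cytosolic enzyme that makes phosphoenolpyruvate from oxaloacetate. It had 200, 271 and 293 counts in Vil.Cre Maf.flox replicates 1, 2 and 3, against 1627, 2125 and 832 in Maf.flox replicates 1, 2 and 3, or 10.1, 15.9 and 12.5 CPM against 68.4, 110.6 and 39.5 CPM. The groups did not overlap, and the Maf.flox libraries were spread more widely, with replicate 3 the lowest. The log2 fold change was -2.50 (SE 0.393, 95% interval -3.44 to -1.56), and the adjusted p was 0.0622 by edgeR's quasi-likelihood test. Without Maf.flox replicate 3 the value was -2.80 with an adjusted p of 0.00210 by the same test, in a fit that called 701 genes in all, against 75 with all libraries. Leaving out any other library gave -2.66 to -2.06, with adjusted p of 0.0646 to 0.25. The ratio of mean CPM was -2.39 in males and -2.58 in females on the log2 scale, where counts of Xist and Y-linked genes place 2 males and 1 female in Vil.Cre Maf.flox and 1 male and 2 females in Maf.flox.

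Pck2 (ENSMUSG00000040618, chromosome 14, 55540266 to 55551242, plus strand), the mitochondrial form of the same enzyme, was at 45.6, 46.2 and 52.5 CPM in Vil.Cre Maf.flox replicates 1 to 3, against 45.5, 52.0 and 60.2 CPM in Maf.flox replicates 1 to 3. The groups overlapped. Its log2 fold change was -0.13 (SE 0.123, 95% interval -0.41 to 0.15, edgeR adjusted p = 0.665, quasi-likelihood test). Of the summed deposited FPKM of both forms, which is a level per gene length, Pck1 held 33.6, 44.0 and 35.2% in Vil.Cre Maf.flox replicates 1 to 3, against 77.4, 82.9 and 59.9% in Maf.flox replicates 1 to 3. By FPKM, Pck1 was thus the lesser form in each Vil.Cre Maf.flox library and the major one in each Maf.flox library. This order depends on the gene lengths used, 3429 bases for Pck1 and 7806 for Pck2. In Maf.flox replicate 3, Pck1 had fewer counts than Pck2 (832 against 1269). The log2 ratio of Pck1 over Pck2 differed by -2.28 between groups (Vil.Cre Maf.flox -0.74 ± 0.339, Maf.flox 1.54 ± 0.872; SD, n = 3 each). The exact two-sided permutation p was 0.1, the smallest that 3 against 3 allows, and 0.25 adjusted over 5 ratios.

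G6pc (ENSMUSG00000078650, chromosome 11, 101367561 to 101377903, plus strand) encodes the catalytic subunit that releases free glucose from glucose-6-phosphate. It had 22, 125 and 62 counts in Vil.Cre Maf.flox replicates 1 to 3, against 748, 253 and 165 in Maf.flox replicates 1 to 3, or 1.12, 7.34 and 2.65 CPM against 31.4, 13.2 and 7.83 CPM. No library of one group reached the other, but Vil.Cre Maf.flox replicate 2 and Maf.flox replicate 3 lay close together. The coefficient of variation was 87.6% in Vil.Cre Maf.flox and 70.9% in Maf.flox libraries, the highest of the 7 genes in either group. The log2 fold change was -2.26 (SE 0.804, 95% interval -4.24 to -0.29, adjusted p = 0.249 by edgeR's quasi-likelihood test). It was -1.52 without Maf.flox replicate 1 and -3.18 without Vil.Cre Maf.flox replicate 2, so that single libraries moved it in both directions.

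Slc37a4 (ENSMUSG00000032114, chromosome 9, 44396852 to 44402968, plus strand), the carrier that brings glucose-6-phosphate to that subunit, had 32.1, 29.4 and 22.8 CPM in Vil.Cre Maf.flox replicates 1 to 3, against 44.5, 40.9 and 37.2 CPM in Maf.flox replicates 1 to 3. The groups did not overlap. Its log2 fold change was -0.54 (SE 0.142, 95% interval -0.86 to -0.22, adjusted p = 0.122 by edgeR's quasi-likelihood test). The log2 ratio of G6pc over Slc37a4 was -3.07 ± 1.43 in Vil.Cre Maf.flox and -1.22 ± 0.887 in Maf.flox (SD, n = 3 each), with overlapping groups and an exact permutation p of 0.2. Fbp1 (ENSMUSG00000069805, chromosome 13, 62864753 to 62888282, minus strand), which removes a phosphate from fructose bisphosphate, had 8.57, 11.0 and 14.8 CPM in Vil.Cre Maf.flox replicates 1 to 3, against 25.7, 21.4 and 18.9 CPM in Maf.flox replicates 1 to 3. The groups did not overlap, and Vil.Cre Maf.flox replicate 3 was the nearest to the Maf.flox values. Its log2 fold change was -0.94 (SE 0.209, 95% interval -1.42 to -0.47, adjusted p = 0.0866 by edgeR's quasi-likelihood test). The ratio of mean CPM was -1.40 in males and -0.45 in females on the log2 scale, each sex with a single library of 1 genotype; this difference between the sexes was not tested. Within males and females the same ratio was -0.91 and -0.77 for Khk, -0.05 and -0.34 for Tkfc, -2.90 and -1.98 for G6pc, -0.53 and -0.78 for Slc37a4, and 0.01 and -0.10 for Pck2.

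Khk (ENSMUSG00000029162, chromosome 5, 30921431 to 30931248, plus strand) was at 104.8, 156.1 and 99.1 CPM in Vil.Cre Maf.flox replicates 1 to 3, against 245.8, 196.9 and 140.8 CPM in Maf.flox replicates 1 to 3. The groups overlapped, with Vil.Cre Maf.flox replicate 2 above Maf.flox replicate 3. The log2 fold change was -0.70 (SE 0.241, 95% interval -1.26 to -0.14, adjusted p = 0.217 by edgeR's quasi-likelihood test). Counts per gene do not separate its A and C isoforms, which differ in an alternative exon.

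Tkfc (ENSMUSG00000034371, chromosome 19, 10592200 to 10604258, minus strand) was at 262.1, 358.6 and 221.1 CPM in Vil.Cre Maf.flox replicates 1 to 3, against 320.7, 305.5 and 252.1 CPM in Maf.flox replicates 1 to 3. Vil.Cre Maf.flox libraries held both the highest and the lowest of the 6 values. The log2 fold change was -0.06 (SE 0.183, 95% interval -0.48 to 0.35, adjusted p = 0.904 by edgeR's quasi-likelihood test). Tkfc counts are uncertain, since its exons in the GENCODE M21 annotation overlap those of Cyb561a3 (12.9% of bases) and Ddb1 (7.10%). Both lie on the other strand, and whether counting used strand was not stated. That annotation gives Tkfc 4617 exon bases and a different start or end, against 2253 bases in the deposited table. The shares for the gene as counted may therefore differ. Relative to Tkfc in the same library, Khk was lower in every Vil.Cre Maf.flox library. The log2 ratio of Khk over Tkfc was -0.90 ± 0.0850 in Vil.Cre Maf.flox and -0.29 ± 0.228 in Maf.flox libraries (SD, n = 3 each), a difference of -0.61 (exact permutation p = 0.1, the smallest possible; 0.25 adjusted over 5 ratios). Khk over Fbp1 overlapped between groups (3.32 ± 0.573 and 3.04 ± 0.194, SD, n = 3 each, exact permutation p = 0.5), as did Fbp1 over G6pc (2.50 ± 1.25 and 1.07 ± 0.791, exact permutation p = 0.3), with the Vil.Cre Maf.flox value first.

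**Figure D2:**
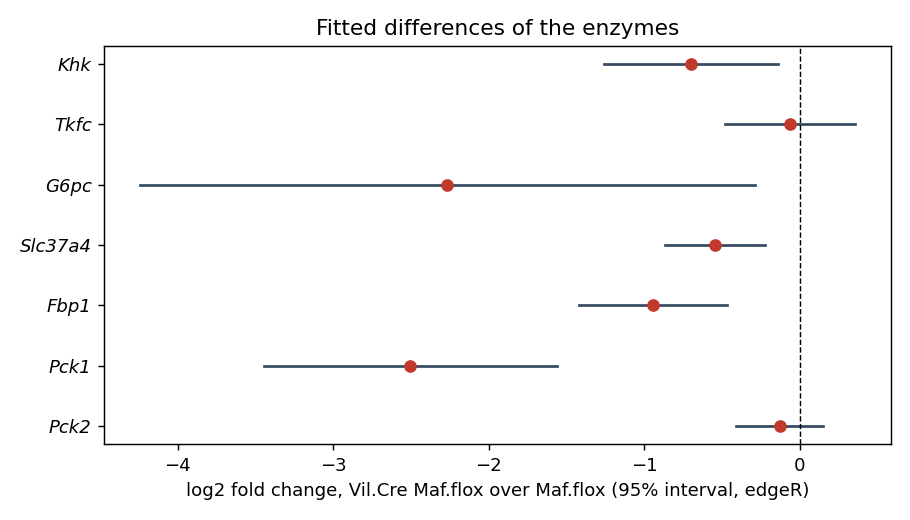
Fitted log2 fold change of each gene, Vil.Cre Maf.flox over Maf.flox (points), with its 95% interval from edgeR's quasi-likelihood fit (lines). The intervals of Khk, G6pc, Slc37a4, Fbp1 and Pck1 lie below 0 and those of Tkfc and Pck2 span it; no gene passed after adjustment over 13740 genes.

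**Figure D3:**
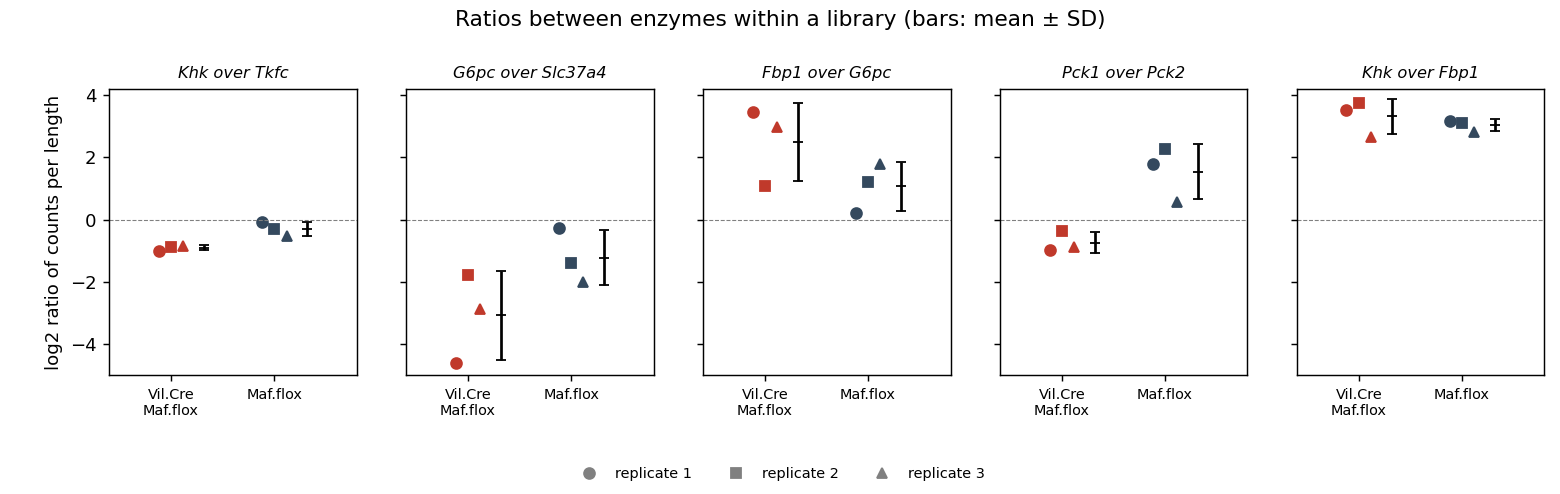
Log2 ratio of counts per gene length between pairs of genes in each library, with the mean ± SD of the 3 libraries of a group. Khk over Tkfc and Pck1 over Pck2 do not overlap between Vil.Cre Maf.flox (red) and Maf.flox (dark blue); the other 3 ratios do.

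By deposited FPKM, the order of the 7 genes in Vil.Cre Maf.flox libraries was Tkfc (125 ± 30.9), Khk (66.9 ± 17.2), Slc37a4 (9.86 ± 1.67), Fbp1 (6.74 ± 1.86), Pck2 (6.17 ± 0.511), Pck1 (3.76 ± 0.837) and G6pc (1.54 ± 1.34; SD, n = 3 each). In Maf.flox libraries it was Tkfc (129 ± 16.6), Khk (108 ± 29.9), Pck1 (21.1 ± 10.3), Slc37a4 (14.3 ± 1.38), Fbp1 (12.9 ± 2.13), G6pc (7.24 ± 5.20) and Pck2 (6.70 ± 0.900). Pck1 thus stood below Pck2 in Vil.Cre Maf.flox and next after Khk in Maf.flox. Among neighbours in this order, library values overlapped in Vil.Cre Maf.flox for Slc37a4 and Fbp1, Fbp1 and Pck2, and Pck1 and G6pc. In Maf.flox they overlapped for every neighbouring pair except Khk and Pck1.

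The paralogs had other levels. Fbp2, a second fructose bisphosphatase gene, averaged 163 ± 22.1 FPKM in Vil.Cre Maf.flox and 199 ± 22.2 FPKM in Maf.flox libraries (SD, n = 3 each), so Fbp1 made up 3.31 to 5.38% and 5.88 to 6.43% of the FPKM of both. Its log2 fold change was -0.30 (adjusted p = 0.316 by edgeR's quasi-likelihood test). G6pc3, a catalytic subunit expressed in many tissues, averaged 17.8 ± 1.10 FPKM in Vil.Cre Maf.flox and 15.6 ± 3.76 FPKM in Maf.flox libraries, with a log2 fold change of 0.18 (adjusted p = 0.646 by edgeR's quasi-likelihood test). G6pc held 7.83 ± 6.60% of the summed FPKM of G6pc and G6pc3 in Vil.Cre Maf.flox and 30.6 ± 18.2% in Maf.flox libraries (SD, n = 3 each), and these shares overlapped. No stretch of 50 bases of the longest coding transcript of Khk, G6pc, Slc37a4, Fbp1 or Pck1 occurs in a transcript of another gene, so a perfectly matching read of that length from them fits no other annotated transcript. For Pck2 the share was 1.86%, and for Tkfc 16.8%, with Cyb561a3. The Tkfc transcript held 2709 such stretches, more than the 2253 bases of the gene as counted, so its share there may differ.

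The list of fructose entry and other fructose or polyol genes, which includes Sord and Akr1b3 of the polyol route, Glyctk and the regulator Txnip, had a median log2 fold change of -0.94, and 5 of 6 lay below 0. None was called in either direction. Slc2a5, the GLUT5 fructose transporter, had 21.0, 26.5 and 20.7 CPM in Vil.Cre Maf.flox replicates 1 to 3, against 43.2, 81.7 and 49.9 CPM in Maf.flox replicates 1 to 3 (log2 fold change -1.36, adjusted p = 0.0670 by edgeR's quasi-likelihood test). All 3 Vil.Cre Maf.flox libraries lay below the Maf.flox libraries. The mRNA of this transporter and of Khk thus both had lower group means in Vil.Cre Maf.flox, without a call over all genes.

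The reversible steps that glucose production shares with glycolysis had a median of 0.30, with 6 of 7 tested genes above 0 and none called. Pgk1, a kinase of the triose stage, had a log2 fold change of 0.46 (adjusted p = 0.148 by edgeR's quasi-likelihood test). In steps used by glycolysis alone, 10 of 12 tested genes lay above 0 (median 0.13), and 1 was called higher, where 0.189% of all genes were. This was Hk2, a hexokinase that phosphorylates glucose, at 122.4, 89.3 and 91.3 CPM in Vil.Cre Maf.flox replicates 1 to 3, against 52.8, 54.8 and 52.6 CPM in Maf.flox replicates 1 to 3. All 3 Vil.Cre Maf.flox libraries lay above the Maf.flox libraries, as they did for 10.1% of all genes. Hk2 rose by a log2 fold change of 0.92 (SE 0.133, adjusted p = 0.0315 by edgeR's quasi-likelihood test). The call held in 8 of 14 alternative fits and was lost with sex as a term (0.89, adjusted p = 0.0529) and without any library but Maf.flox replicate 3 (0.77 to 1.02, adjusted p 0.0527 to 0.130), so the size of the difference moved little.

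Genes that supply carbon to glucose production had a median of -0.08 over 13 tested, 7 below 0 and 6 above. Gk, glycerol kinase, which brings glycerol into the triose phosphates, was called lower, where 0.357% of all genes were, and the others were not. It had 43.9, 60.6 and 56.0 CPM in Vil.Cre Maf.flox replicates 1 to 3, against 199.3, 222.7 and 128.5 CPM in Maf.flox replicates 1 to 3. Gk fell by 1.78 on the log2 scale (SE 0.217, adjusted p = 0.0250 by edgeR's quasi-likelihood test), a call that 8 of 14 alternative fits kept. It was lost when any library but Maf.flox replicate 3 was left out (-1.86 to -1.61, adjusted p 0.0526 to 0.109) and with sex as a term (-1.79, adjusted p = 0.0697 by the same test), again with little change in size. The log2 ratio of mean CPM for this gene on chromosome X was -1.93 in males and -1.65 in females. Genes of lipid synthesis from sugar, 6 in all, had a median of 0.19 with none called, led by the elongase Elovl6 at 0.62 (adjusted p = 0.0657) and the fatty acid synthase Fasn at 0.40 (adjusted p = 0.114, both by edgeR's quasi-likelihood test).

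**Figure D4:**
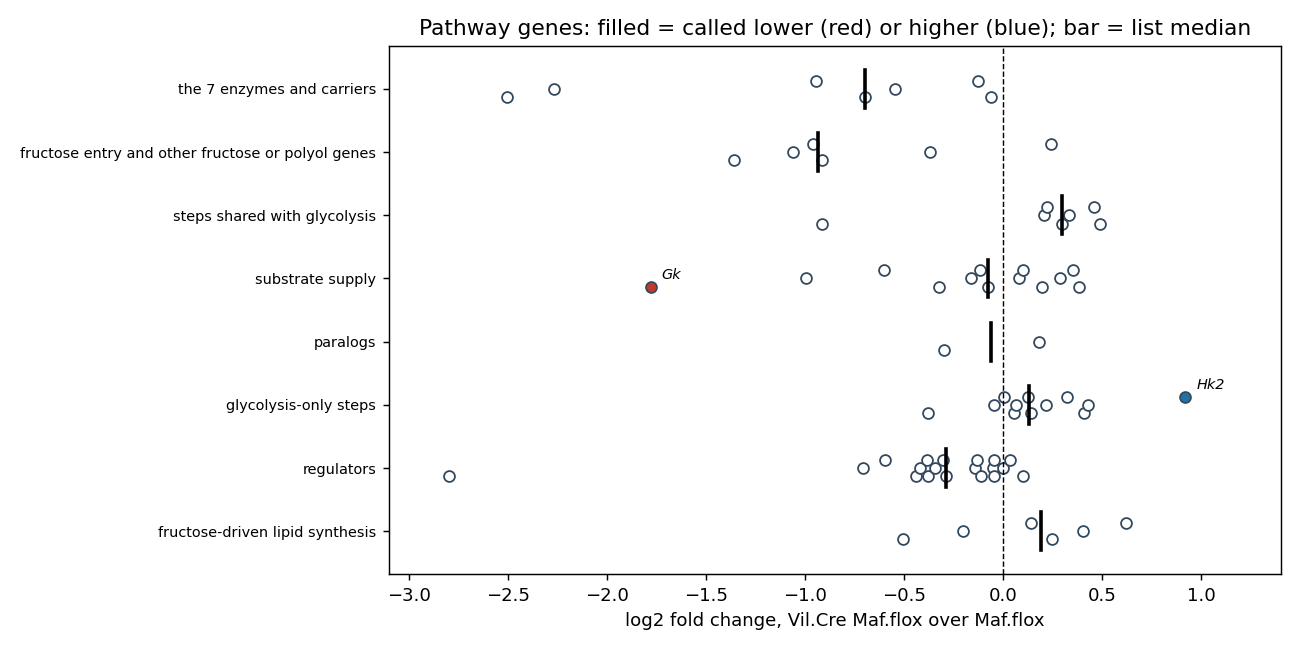
Log2 fold change, Vil.Cre Maf.flox over Maf.flox, of every tested gene of the 7 genes described here and of 7 lists of related genes, with a bar at the median of each row. The list of fructose and polyol genes has its median at -0.94 and the shared steps at 0.30; Gk (called lower) and Hk2 (called higher) are the filled points.

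Of 19 regulators known for these enzymes, 16 had a log2 fold change below 0 (median -0.29) and none was called. Creb3l3, a membrane-bound bZIP factor of liver and intestine, had 13.9, 9.04 and 13.9 CPM in Vil.Cre Maf.flox replicates 1 to 3, against 102.7, 115.5 and 39.5 CPM in Maf.flox replicates 1 to 3 (log2 fold change -2.80, adjusted p = 0.0674 by edgeR's quasi-likelihood test). Hnf4g, a nuclear receptor of enterocytes, had a value of -0.44 (adjusted p = 0.142 by the same edgeR test).

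Across the 6 libraries, the genes whose log2 CPM followed each enzyme most closely among 11201 genes were taken as a description. The points share the genotype difference, and the highest of 11201 values over 6 points is high by selection. For Pck1 they were Slc2a2, the basolateral glucose transporter GLUT2, Rcan1 and Cyp4v3 (Pearson r of 0.998, 0.995 and 0.994, n = 6 libraries). For Khk they were Dpep1, Agmo and Dact2 (0.998, 0.997 and 0.996), and for G6pc Icosl, Malrd1 and Cmbl (0.997, 0.996 and 0.993). Those of Fbp1 were Dvl1, Pcnx and Ranbp6 (0.997, 0.986 and 0.985), and those of Slc37a4 Mad2l2, Csk and Clcn7 (0.996, 0.989 and 0.988). Those of Tkfc were Iah1, Ptpn9 and Rab8a (0.996, 0.987 and 0.986), and those of Pck2 Zfp523, Dach1 and Phlpp1 (0.987, 0.986 and 0.985). Among the members themselves, r was highest for Khk with G6pc (0.948) and lowest for Tkfc with Pck2 (-0.545).

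Enterocyte markers also had a lower mean level in Vil.Cre Maf.flox, with overlapping groups. The summed level of 8 of them was 8426, 10910 and 6370 CPM in Vil.Cre Maf.flox replicates 1 to 3, against 19620, 18580 and 9024 CPM in Maf.flox replicates 1 to 3, with none called over all genes and none at 0. Expressed relative to this sum in the same library, Pck1 and G6pc were still lower in all Vil.Cre Maf.flox libraries (log2 differences of -1.57 and -1.58). For G6pc the nearest libraries were close, at -10.54 in Vil.Cre Maf.flox replicate 2 and -10.46 in Maf.flox replicate 2. Khk (0.14), Slc37a4 (0.28), Fbp1 (-0.14) and Pck2 (0.71) overlapped between groups, and Tkfc (0.75) lay higher. Since the sum itself was lower on average in Vil.Cre Maf.flox, a gene with unchanged CPM scores above 0 on this scale. Values above 0, as for Tkfc with a plain log2 fold change of -0.06, therefore show no rise of the gene. Apoa1, an apolipoprotein, and Fabp2, a fatty acid binding protein, made up most of the difference in this sum. Apoa1 had 2080, 2720 and 1304 CPM in Vil.Cre Maf.flox, against 7772, 5131 and 2097 CPM in Maf.flox, and Fabp2 had 1038, 1084 and 593.4 CPM against 4322, 5522 and 1872 CPM. Among the other markers in this sum, Krt20, Sis and Vil1 had log2 fold changes of 0.02, -0.21 and -0.39. Those of Alpi, Apoa4 and Fabp1 were further below 0, at -0.996, -1.23 and -1.46. The median over all 8 markers was -1.11. Relative to the 6 markers without Apoa1 and Fabp2, Khk (-0.41), G6pc (-2.13) and Pck1 (-2.12) were lower in all Vil.Cre Maf.flox libraries. Tkfc (0.20), Slc37a4 (-0.27), Fbp1 (-0.69) and Pck2 (0.16) overlapped. The share of all genes without overlap was not computed on either relative scale, so these separations have no background to be read against. Apoa1 and Fabp2 were left out because their CPM differed most, a choice that by itself moves all 7 relative values down. The change of sign of Khk and Slc37a4 follows from it and is no separate result. The part of the marker difference in the results was not tested. The 7 leukocyte markers measured summed to at most 1.703 CPM in Vil.Cre Maf.flox and 3.44 CPM in Maf.flox libraries, and the 6 stromal and endothelial markers to 0.214 to 0.940 CPM and 0.427 to 0.885 CPM. The 5 pan-epithelial markers summed to 12970 to 16650 CPM and 13500 to 14640 CPM, and 4 crypt and stem cell markers to 1509 to 2086 CPM and 1702 to 2428 CPM, in each case with Vil.Cre Maf.flox first. The 4 tuft cell markers summed to 11.6 to 12.9 CPM in Vil.Cre Maf.flox, against 13.6 to 54.0 CPM in Maf.flox. Singly, Dclk1, Trpm5 and Pou2f3 overlapped between groups. Avil lay lower in every Vil.Cre Maf.flox library, as did 10.5% of all genes. Paneth cell markers summed to 3681 to 4916 CPM in Vil.Cre Maf.flox and 2447 to 14030 CPM in Maf.flox, and goblet cell markers to 10610 to 19870 CPM and 10310 to 23260 CPM. Enteroendocrine markers summed to 162.5 to 303.1 CPM in Vil.Cre Maf.flox and 185 to 568.3 CPM in Maf.flox, and villus tip markers to 1317 to 1530 CPM and 1357 to 1556 CPM. Cdh1, also a pan-epithelial marker here, made up most of the villus tip sum. Among the other tip markers, log2 fold changes were -3.42 for Nt5e (at most 5.83 CPM), -1.64 for Ada and -0.48 for Klf4. They were -0.22 for Slc28a2, -0.09 for Egfr and 0.10 for Enpp3. Markers of the proximal small intestine summed to 197 to 233.1 CPM in Vil.Cre Maf.flox and 154.3 to 203.3 CPM in Maf.flox, and distal ones to 6625 to 13180 CPM and 6737 to 11880 CPM. The proximal sum joined log2 fold changes of -3.53 (Cyp2b10), -0.98 (Cybrd1), -0.10 (Gata4), 0.62 (Adh6a) and 1.04 (Slc40a1). Most of the distal sum was Fabp6 (0.25), beside Guca2a (-0.19), Slc10a2 (-0.47) and Clec2h (-1.11). None of these markers was called, and their part in the results was not tested.

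Calls depended on the fit, here by edgeR's quasi-likelihood test except where DESeq2 is named. Pck1 passed with upper quartile scaling (adjusted p = 0.0465), with DESeq2 (1.33e-12), with a replicate block (0.0189) and without Maf.flox replicate 3 (0.00210). Fbp1 passed with no filter (0.0151), with DESeq2 (0.00252) and without Maf.flox replicate 3 (0.0363), and Slc37a4 with no filter (0.0498), with DESeq2 (0.0351) and with the block (0.0331). That made 1 of 7 members under upper quartile scaling, where 0.48% of all genes were called lower, 2 with no filter (0.926%), 3 with DESeq2 (3.54%), 2 with the block (2.24%) and 2 without Maf.flox replicate 3 (4.11%). Khk, G6pc, Tkfc and Pck2 passed in none of the 14 alternative fits.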

How the data were processed

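RNA of sorted small-intestinal epithelial cells was sequenced from poly-A-selected mRNA, per the labels' protocols, which leave the strandedness of the libraries unstated. The submitters' processing notes name the GRCm38 (mm10) build, the aligner HISAT2 2.0.5, the counter featureCounts 1.5.0-p3 and also DESeq2. The deposited counts are whole numbers per gene. The FPKM deposited by the authors are counts per gene length and per a library size of 0.953 to 1.07 times the summed counts; they were used for levels only. Date-like entries stood in place of 24 symbols, and identifiers were used to restore them.

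The test of counts used edgeR 4.0.16 (R 4.3.3): filterByExpr with a least count of 10, TMM scaling, the robust quasi-likelihood F test of genotype, two-sided, with Benjamini-Hochberg adjustment over 13740 genes. CPM are TMM-scaled, and log2 CPM for correlations used a prior count of 2. Ratios between genes were tested by exact permutation over libraries. Alternatives were DESeq2 1.42.0, limma-voom (limma 3.58.1), other scalings and filters, a replicate block, a sex term and leaving out each library in turn. Deviations from the group means correlated at 0.092, -0.026 and 0.269 between libraries of the same number, so numbers were not taken as pairs. All library pairs of a group differed by more than sampling of reads gives (36.0 to 132 chi-square units per gene, against 56.7 to 129 between groups). Members and lists were chosen with earlier results of these data known. Named list genes were those called over all genes, or else the 2 with the smallest p, and a gene that this rule names is not reported here; the 3 most alike genes were those with the highest Pearson r among genes with a mean of at least 50 counts. At these depths 1 CPM is 17.0 to 23.8 counts per library. Values within each sex and relative to 8 or 6 enterocyte markers were added after seeing the data.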

Additional observations from a re-analysis of the deposited data

How the results depend on the processing

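Of the 7 members, 0 were called over all genes in the fit reported, with 2248 genes of the whole table at an unadjusted p under 0.05. The count was 1 with upper quartile scaling, 2 with no filter, 3 with DESeq2 and 2 with a replicate block, and it ran from 0 to 2 when 1 library was left out. Over all genes, 75 calls became 365 with no filter, 760 with DESeq2, 30 with limma-voom, 440 with the replicate block and 38 with a sex term, and 8 to 701 with 1 library left out. Library numbers are not labelled as pairs, and the block gave Pck1 and Slc37a4 log2 fold changes of -2.40 and -0.55. Khk, G6pc, Slc37a4, Fbp1, Pck1 and Pck2 stayed below 0 in all 14 alternative fits. Tkfc ran from -0.26 to 0.084 with 1 library left out and was above 0 without Maf.flox replicate 1 (0.017) and also without replicate 3 of Vil.Cre Maf.flox. In males Pck2 was 0.012. Relative to the enterocyte markers, Khk was 0.14, Tkfc 0.75, Slc37a4 0.28 and Pck2 0.71. Without Apoa1 and Fabp2 among those markers, Tkfc was 0.20 and Pck2 0.16. The marker sums were lower on average in Vil.Cre Maf.flox, which raises such relative values. With 1 library left out in turn, Khk ran from -0.91 to -0.48, G6pc from -3.18 to -1.52 and Pck1 from -2.80 to -2.06; the cause was not tested. Differences of the log2 ratios kept their sign throughout: -0.72 to -0.49 for Khk over Tkfc and -2.76 to -1.91 for Pck1 over Pck2. Medians of the substrate and paralog lists changed sign (-0.20 to 0.02 and -0.09 to 0.01), and those of the other 5 lists did not. Gk and Hk2 each lost their call in 6 of 14 alternative fits. G6pc, with 22 to 125 counts in Vil.Cre Maf.flox libraries, is the least precisely measured of the 7.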
